A study of Drosophila melanogaster with 36 samples.

Results

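The genes described here are the cytochrome P450 genes measured in heads of adult Drosophila melanogaster, chosen by name. A gene was taken when a probe set carried a single symbol starting with Cyp and a digit, and the probe set with the highest mean over all arrays stood for it. The rule found 83 of the 11982 genes with a probe set of their own. Cyp1 and Cyp40, which encode cyclophilins and no P450, share only the prefix, so 81 P450 genes were described and these cyclophilin genes were kept out of every count. P450 genes measured under names of their own, such as sad, were not found by the rule. They stand outside the counts and rankings and are read apart, as a list. All values are deposited log2 expression values, in which a difference of 1 is a 2-fold difference.

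The study measured 4 genotypes on 3 days, with 3 arrays in each of the 12 groups and RNA from 20 heads behind each array. The labels give the Control genotype as GMR-Gal4 and Gal80. The other lines carry a transgene of Atro, the fly Atrophin gene, which is polyglutamine-expanded in the lines A66QC and A75QN and unexpanded wild type in Atro. GMR-Gal4 drives expression in the developing and adult eye, so the transgene is meant for eye cells while the RNA comes from whole heads. Flies of all 4 genotypes developed at 18 °C, at which a temperature-sensitive Gal80 is meant to hold the transgenes off. Newly eclosed flies were frozen at once on day 0 or aged at 29 °C for 2 or 14 days. Day therefore stands for age and temperature together, which cannot be told apart. Neither sex nor a separate origin of the replicates is stated, so the p-values cover only the spread between these samples, which may be technical.

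P450 enzymes are haem proteins that insert an oxygen atom into lipids, hormones and foreign compounds. They draw electrons from NADPH through a reductase in the endoplasmic reticulum or from adrenodoxin-type ferredoxins in mitochondria. Insect P450 genes fall into the CYP2, CYP3, CYP4 and mitochondrial clans. The CYP3 clan holds many genes known from insecticide and plant toxin breakdown, and the CYP2 and mitochondrial clans hold enzymes of ecdysone metabolism.

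Of the 81 P450 genes, 59 had a mean above 6.40, the highest median of any array, and are called expressed. Another 7 genes passed that limit in some groups only, and 15 stayed below it in all 12 groups. The gene just inside the limit was Cyp6a19 with a mean of 6.43, and the gene just outside was Cyp28d2 with 6.36. Among the 81 genes, the CYP3 clan supplied 31 expressed genes of 37 and the CYP4 clan 21 of 32. The mitochondrial clan supplied 5 of 8 and the CYP2 clan 2 of 4, without the P450 genes measured under other names. Hybridisation differs between probe sets, so the order of these means is not an order of transcript numbers.

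**Figure D1:**
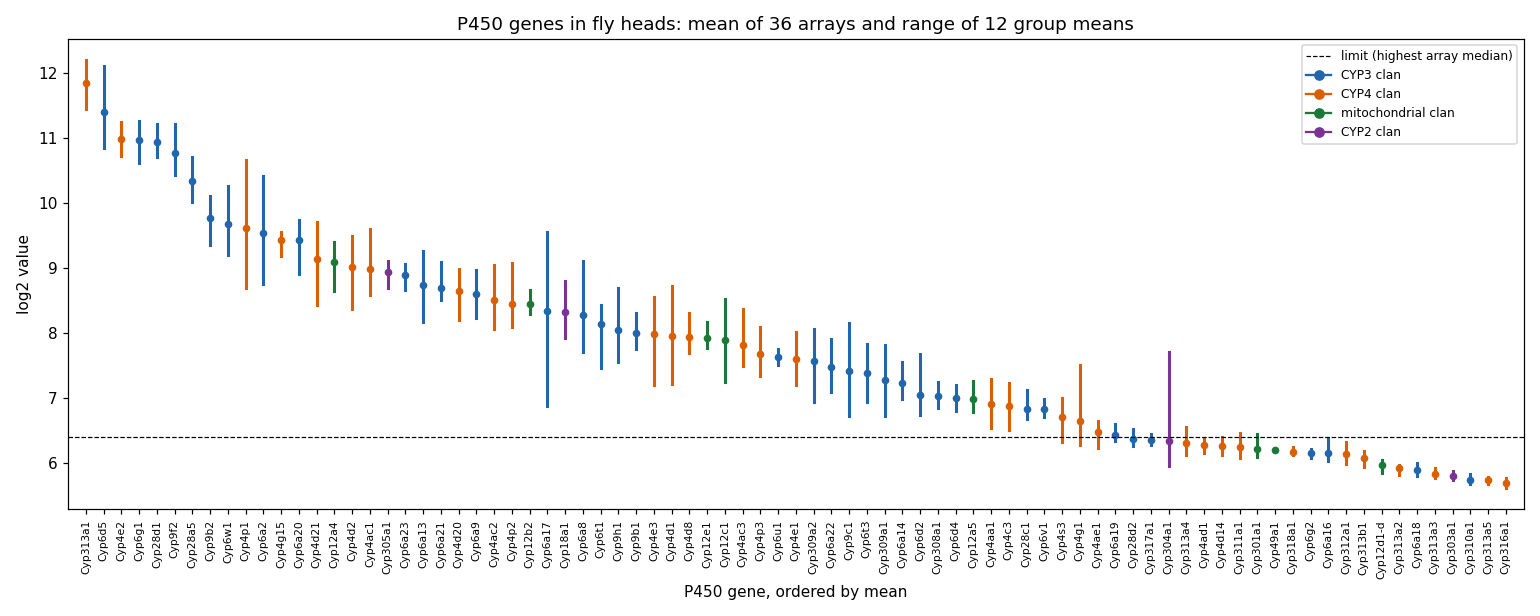
Mean log2 value of each of the 81 P450 genes over 36 arrays (point) and the range of its 12 group means (bar), ordered by the mean, with colour giving the clan. The dashed line is the limit of 6.40, and Cyp6a17 has the widest bar, with group means that span 2.68.

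The highest values belonged to Cyp313a1, with a mean of 11.84, and Cyp6d5, with 11.39. Cyp4e2, Cyp6g1, Cyp28d1, Cyp9f2 and Cyp28a5 followed between 10.98 and 10.33. Cyp6g1 is known for DDT resistance when it is overexpressed, and Cyp28d1 has been tied to nicotine resistance. Cyp4g15, a gene of the nervous system, had a mean of 9.43, and its group means stayed between 9.18 and 9.55. Cyp4g1, the oenocyte enzyme that completes cuticular hydrocarbon synthesis, averaged 6.64 and was scattered within groups: the Control arrays of day 14 gave 7.31, 6.11 and 7.48. Cyp303a1, which is needed for sensory bristles, Cyp310a1 and Cyp316a1 had means between 5.68 and 5.80 and differed in no comparison. Cyp49a1, at 6.20, and Cyp6g2, at 6.15, were likewise called nowhere. Altogether 12 P450 genes passed the test in none of the 22 comparisons, and of these Cyp6u1 was the expressed one, at 7.63.

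Among the 81 P450 genes found by the rule, the widest range of group means was 2.68, for Cyp6a17. Cyp4p1 followed with 1.98. Cyp304a1 came next with 1.75 and Cyp6a2 with 1.67. These 4 genes are described below with the genotypes, after the differences between days.

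The first question was how P450 genes changed as the flies went from eclosion at 18 °C to 2 days at 29 °C. The Control heads gave 15 P450 genes higher and 26 lower at an adjusted p under 0.05 in limma, with Benjamini-Hochberg adjustment over all 18769 probe sets tested. The same comparison called 10.6% of all probe sets higher and 11.5% lower. Atro heads had 8 higher and 23 lower, against 6.12% and 9.61% of all probe sets. A66QC heads had 10 higher and 24 lower, against 11.2% and 6.85%. A75QN heads had 15 higher and 13 lower, against 12.8% and 6.92%, and this split turned to 14 and 19 after quantile normalization and to 12 and 23 after cyclic loess. It also turned, to between 1 and 5 more lower than higher genes, without A75QN replicate 2 or 3 of day 0 or any single A75QN array of day 2. Brighter probe sets were called more often, so expressed genes were also set against the 9329 probe sets above the same limit. In Control 61.0% of the 59 expressed P450 genes were called against 40.4% of those probe sets, and the shares were 49.2% and 28.3% in Atro, 54.2% and 33.3% in A66QC, and 44.1% and 36.4% in A75QN.

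In Control 15 of the 37 CYP3 genes fell and 5 rose, while 6 of the 32 CYP4 genes fell and 7 rose. Of the 8 mitochondrial genes, 4 fell and 3 rose in Control, 3 fell and 1 rose in A66QC, 2 fell and 0 rose in Atro, and 0 fell and 2 rose in A75QN. The CYP3 clan had 14 falls and 3 rises in Atro, the same counts in A66QC, and 8 falls and 5 rises in A75QN. Whether the clans differed was not tested. Across the 4 genotypes, which share no array, 12 P450 genes fell in every one, and 3.32% of all probe sets did so. They were Cyp6d5, Cyp9f2, Cyp28a5, Cyp6w1, Cyp6a13, Cyp6a9, Cyp6a8, Cyp4ac3, Cyp4e1, Cyp6d4, Cyp4c3 and, near the limit, Cyp313a4. Another 7 rose in every genotype, as 3.69% of all probe sets did: Cyp313a1, Cyp4d2, Cyp4ac1, Cyp309a2, Cyp9c1, Cyp6t3 and Cyp4aa1.

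**Figure D2:**
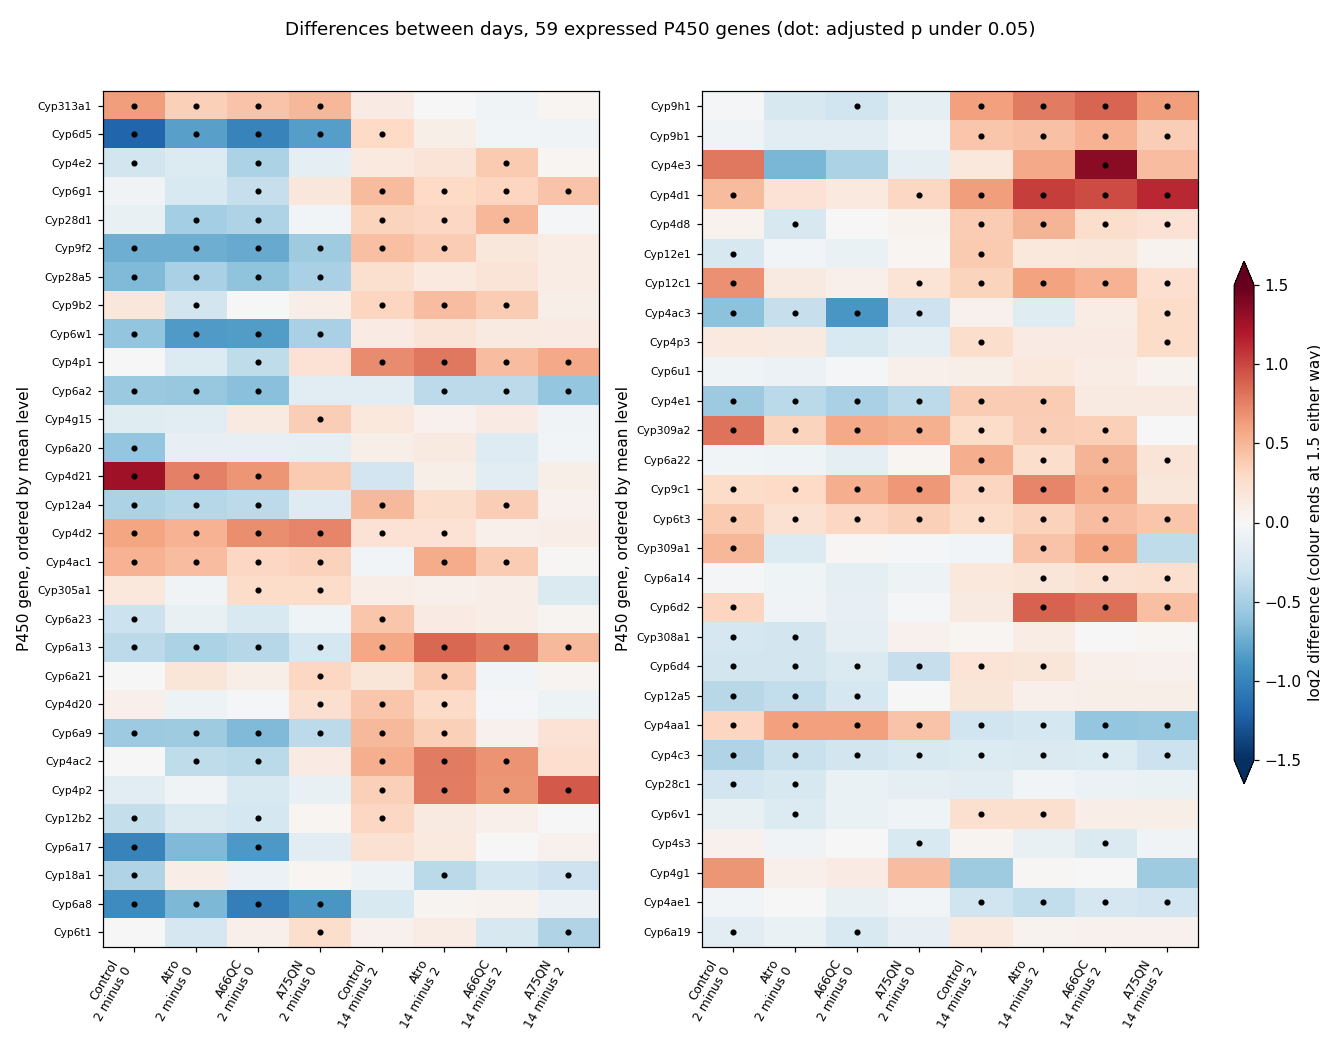
Log2 differences between days for the 59 expressed P450 genes (rows, by mean level), with day 2 minus day 0 in the 4 left columns and day 14 minus day 2 in the 4 right columns of each panel, and colour ending at 1.5 either way. Red is higher on the later day, blue is lower, and a dot marks an adjusted p under 0.05; Cyp6d5 and Cyp6a8 are blue with dots in all 4 early columns, and Cyp4d1 is red with dots in all 4 late ones.

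Cyp6d5 had the deepest fall in Control. Its arrays read 11.90, 12.06 and 12.13 on day 0 and 10.86, 10.71 and 10.97 on day 2, with no overlap. It fell by 1.18 (SE 0.089, adjusted p = 8.74e-12) in Control, and its differences in Atro and A75QN were -0.81 and -0.83, while its mean in A66QC went from 12.10 to 11.09. From day 2 to day 14 Cyp6d5 rose by 0.30 (SE 0.089, adjusted p = 0.0222) in Control, and its differences in the other lines lay between -0.06 and 0.08, with no call.

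Cyp6a8, known to be induced by caffeine and phenobarbital, read 8.81, 8.90 and 8.91 in Control on day 0 and 8.02, 7.87 and 7.90 on day 2. These groups were well apart, with a difference of -0.94 (SE 0.098, adjusted p = 7.76e-09). In A66QC it fell by 1.02, in A75QN by 0.87 and in Atro by 0.67, and its differences from day 2 to day 14 lay between -0.23 and 0.05, with no call. Cyp9f2 fell by 0.73, 0.74, 0.76 and 0.53 in Control, Atro, A66QC and A75QN. Cyp6w1, linked to DDT resistance, fell by 0.85 in Atro and 0.84 in A66QC. Its differences in Control and A75QN were -0.59 and -0.49. Cyp28a5 fell by between 0.48 and 0.66. Cyp4ac3 fell by 0.87 in A66QC, 0.61 in Control, 0.34 in Atro and 0.31 in A75QN. Cyp12a4, a mitochondrial P450 that gives resistance to lufenuron when overexpressed, fell by 0.48 in Control, 0.42 in Atro and 0.39 in A66QC, and its difference in A75QN, -0.20, missed the threshold.

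Cyp4d21, also known as sxe1, is expressed more in male heads and acts in courtship. Its Control arrays rose from 8.31, 8.54 and 8.42 on day 0 to 9.72, 9.54 and 9.82 on day 2, a difference of 1.27 (SE 0.15, adjusted p = 9.81e-08). It rose by 0.76 in Atro and by 0.66 in A66QC, while the A75QN arrays were already at 8.74, 9.04 and 9.09 on day 0 and their difference of 0.39 was not called. Its level thus started higher in A75QN than in Control, by 0.53 (SE 0.15, adjusted p = 0.0277), a call that was lost without Control replicate 1 or 3 of day 0 or A75QN replicate 2 or 3 of day 0, with adjusted p from 0.0776 to 0.124. Cyp309a2 rose by 0.82, 0.33, 0.57 and 0.53 in Control, Atro, A66QC and A75QN. Cyp4d2 rose by 0.59, 0.52, 0.70 and 0.73 in the same order, and Cyp313a1 by 0.63, 0.36, 0.43 and 0.49. Cyp12c1 rose by 0.69 in Control (SE 0.07, adjusted p = 5.64e-09) and by 0.20 in A75QN, and was not called in Atro (0.14) or A66QC (0.08). Whether these early changes differed between genotypes was not tested.

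Marker genes of other cell types also changed over the same 2 days. In a list of muscle genes 2 of 2 measured members fell in Control, Atro and A75QN and 1 of 2 in A66QC, and their mean level per array went from between 9.61 and 10.17 to between 8.63 and 8.89 in Control. Of 5 head fat body genes, 2 rose in Control, Atro and A75QN and 1 in A66QC, and their mean went from between 9.26 and 9.92 to between 10.08 and 10.45 in Control. Of 4 glial genes, 2 fell and 1 rose in Control, Atro and A75QN, and 1 fell and 1 rose in A66QC, and 3 of 4 neuronal genes rose in A66QC and 2 in A75QN. All 3 yolk protein genes, which are female-biased, rose in Atro, and 1 of 2 haemocyte genes rose in each of the 4 genotypes. In whole-head RNA, fewer cells of a type and less RNA per cell cannot be told apart, and the part of these shifts in the P450 values was not tested. Of the 3 midgut genes the mean stayed at or below 6.23 on every array, under the limit.

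The second step, from day 2 to day 14 at a constant 29 °C, went mostly upwards. Control had 30 P450 genes higher and 3 lower, when 10.3% and 3.16% of all probe sets were. Atro had 31 higher and 5 lower, against 13.1% and 6.83%. A66QC had 26 higher and 6 lower, against 6.93% and 8.19%. A75QN had 17 higher and 7 lower, against 8.55% and 7.56%. The expressed P450 genes were called in 54.2% of cases in Control, against 24.2% of the probe sets above the limit, and in 55.9%, 47.5% and 35.6% in Atro, A66QC and A75QN, against 36.3%, 27.8% and 29.6%. The Control split became 26 higher and 7 lower after quantile normalization and 24 and 8 after cyclic loess, and its total of 33 fell to 17 without the 5 arrays whose spread stood apart.

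In all 4 genotypes 11 P450 genes rose in this step, as did 3.04% of all probe sets: Cyp6g1, Cyp4p1, Cyp6a13, Cyp4p2, Cyp9h1, Cyp9b1, Cyp4d1, Cyp4d8, Cyp12c1, Cyp6a22 and Cyp6t3. In all 4 genotypes 3 fell, namely Cyp4aa1, Cyp4c3 and Cyp4ae1, against 1.48% of all probe sets. The Control call of Cyp4c3, at -0.20 (adjusted p = 0.0273), was lost without Control replicate 1 or 2 of day 2, replicate 2 or 3 of day 14, or the arrays of outlying spread, with adjusted p from 0.0678 to 0.11. In the CYP3 clan 17 genes rose in Control and none fell, and 18, 14 and 9 rose in Atro, A66QC and A75QN, where 1, 1 and 2 fell.

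Marker genes moved in this step too. The muscle genes fell again, 2 of 2 in Atro and A75QN and 1 of 2 in A66QC, and none was called in Control. In Atro their mean per array went from between 9.17 and 9.62 to between 8.68 and 8.83. Of 4 glial genes, 2 fell in A66QC and in A75QN, and of 4 neuronal genes, 2 fell in A66QC, 1 fell in A75QN and 1 rose in Control. Of the 5 head fat body genes, 2 rose in Atro and in A66QC, 1 rose and 1 fell in A75QN, and 1 fell in Control. Haemocyte genes rose as well, 1 of 2 in Control and Atro and 2 of 2 in A66QC and A75QN, and 2 of 4 photoreceptor genes rose in Control. The part of these shifts in the late P450 differences was not tested.

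The late rise of Cyp4d1 was among the 4 largest in each genotype. The A75QN arrays read 7.57, 7.59 and 7.42 on day 2 and 8.76, 8.51 and 8.71 on day 14, a difference of 1.13 (SE 0.097, adjusted p = 2.04e-10). The differences were 1.04 in Atro, 0.98 in A66QC and 0.63 in Control, and no day 2 array reached any day 14 array of its genotype. The Control heads had already gained 0.48 between day 0 and day 2, and all 4 genotypes ended with means between 8.62 and 8.72.

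Cyp9h1 rose by 0.61, 0.78, 0.88 and 0.63 in Control, Atro, A66QC and A75QN. Cyp6a13, which had fallen by day 2, rose by 0.58, 0.86, 0.78 and 0.49 in the same order. Cyp6d2 rose by 0.89, 0.83 and 0.45 in Atro, A66QC and A75QN (SE 0.07, adjusted p at most 1.61e-05), and its Control difference of 0.13 was not called. Cyp6g1 rose by 0.48, 0.30, 0.32 and 0.43 in Control, Atro, A66QC and A75QN. Its Control arrays read 10.88, 10.59 and 10.88 on day 2 and 11.24, 11.39 and 11.15 on day 14, which did not overlap. Cyp28d1 rose by 0.33, 0.31 and 0.50 in Control, Atro and A66QC and changed by -0.02 in A75QN, with no call. Cyp9b2 had the same set of calls, at 0.32, 0.46 and 0.38, beside 0.09 in A75QN.

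Cyp4aa1 went up and then down in every genotype. Its A66QC arrays read 6.72, 6.67 and 6.60 on day 0, 7.26, 7.19 and 7.39 on day 2, and 6.73, 6.67 and 6.71 on day 14. It rose by 0.62 and fell by 0.58 there (SE 0.057 for both, adjusted p = 1.02e-09 and 3.49e-09). Only day 2 stood apart in A66QC, and the late differences in Control, Atro and A75QN were -0.30, -0.26 and -0.56. Cyp6a2, a phenobarbital-inducible enzyme able to metabolise DDT, moved downwards in both steps in 2 lines. It lost 0.56 and then 0.39 in Atro and 0.62 and then 0.40 in A66QC, whereas the called differences were -0.55 in Control by day 2 and -0.59 in A75QN after day 2. The late call in Atro was lost without Atro replicate 2 of day 14 (adjusted p = 0.0511) and that in A66QC without A66QC replicate 3 of day 2 (adjusted p = 0.0663). Cyp18a1, which inactivates ecdysone, fell after day 2 by 0.40 in Atro and 0.31 in A75QN, and its difference in A66QC was -0.26, with no call. Its second probe set gave -0.32 in Atro and in A75QN and called the A66QC fall as well, at -0.24 (adjusted p = 0.0168). Cyp6t1 fell by 0.46 (adjusted p = 0.000295) in A75QN, and Cyp4s3 by 0.22 in A66QC, a call lost without A66QC replicate 2 of day 14 (adjusted p = 0.0536). Cyp4e3 rose by 1.35 in A66QC (SE 0.29, adjusted p = 0.00114), but it also scattered widely within groups, as in Atro of day 0 with 8.28, 7.61 and 9.44.

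**Figure D3:**
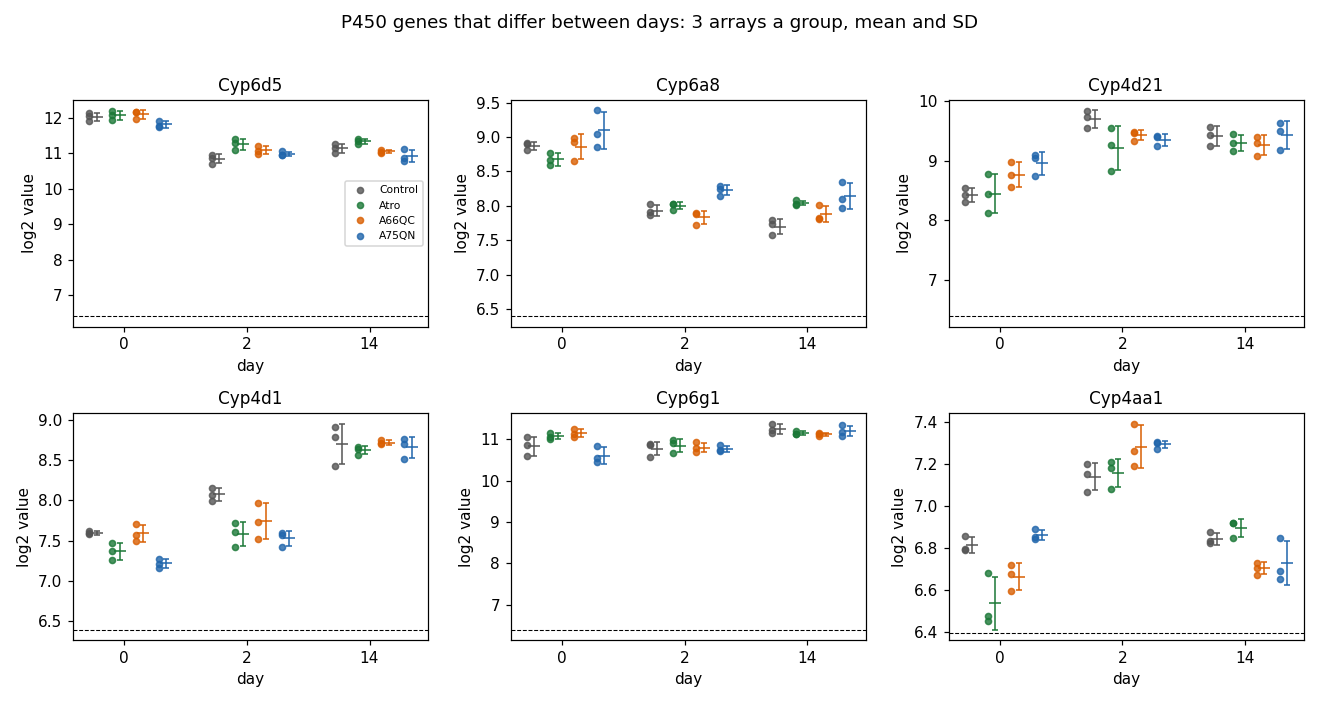
Log2 values by array (points, 3 for each genotype and day), with the mean and SD beside them, for 6 P450 genes with differences between days; the dashed line is the limit of 6.40. Cyp6d5 and Cyp6a8 drop after day 0 in all 4 genotypes, Cyp4d1 reaches means between 8.62 and 8.72 by day 14, and Cyp4aa1 peaks on day 2.

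The lines were next compared with Control on each day. Within a day the 3 comparisons share the Control arrays, so their values are given side by side and not as independent evidence. On day 0, before the shift meant to turn the transgenes on, Atro had 9 P450 genes higher and 7 lower, against 3.15% and 1.23% of all probe sets. A66QC had 11 higher and 9 lower, against 2.5% and 8.36%, and the split became 19 and 6 after quantile normalization and 18 and 6 after cyclic loess. A75QN had 4 higher and 21 lower, against 1.97% and 5.07%, or 8 and 17 and then 8 and 15 under the same 2 settings. The totals of 16, 20 and 25 depended on single arrays: Atro came to 10 without Atro replicate 3, A66QC to 10 without Control replicate 2, and A75QN to 14 without Control replicate 3 or A75QN replicate 3 and to 15 without A75QN replicate 2. With only the compared groups in the fit, Atro came to 9 and A66QC to 13. The slight majority of higher genes in Atro turned to 6 higher and 7 lower without Control replicate 1, and that in A66QC to 8 and 10 without Control replicate 1 or A66QC replicate 1, to 5 and 5 without Control replicate 2 and to 6 and 7 with only the compared groups. Among expressed P450 genes 25.4%, 32.2% and 40.7% were called in Atro, A66QC and A75QN, and 8.06%, 19.3% and 12.6% of the probe sets above the limit were.

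On day 2 Atro had 6 higher and 9 lower, against 1.62% and 2.01% of all probe sets. A66QC had 4 higher and 9 lower, against 1.2% and 2.24%, with 10 and 11 after quantile normalization and 7 and 12 after cyclic loess. A75QN had 4 higher and 10 lower, against 1.66% and 3.02%, with 13 and 17 and then 11 and 17. Without Control replicate 3 of day 2 the A75QN split turned to 6 and 4, and without Atro replicate 2 of day 2 that of Atro was 8 and 8. The shares of expressed P450 genes called on day 2 were 23.7%, 22.0% and 23.7% in Atro, A66QC and A75QN. Among the probe sets above the limit they were 6.68%, 6.25% and 8.54%. On day 14 Atro had 10 higher and 7 lower, against 1.86% and 2.32%. A66QC had 11 higher and 15 lower, against 4.17% and 13.8%, and here the direction of the majority turned, to 20 and 7 and then 19 and 8. A75QN had 8 higher and 26 lower, against 5.8% and 9.8%, with 11 and 15 and then 8 and 19. The shares of expressed P450 genes called on day 14 were 23.7%, 35.6% and 50.8% in Atro, A66QC and A75QN. Among the probe sets above the limit they were 7.24%, 29.9% and 21.5%. In A66QC on day 14 the median absolute difference was 0.142 for expressed P450 genes and 0.139 for the probe sets above the limit. Without Control replicate 2 of day 14 the day 14 totals of 17, 26 and 34 were 11, 15 and 22; without A66QC replicate 2 that of A66QC was 16, and without A75QN replicate 2 that of A75QN was 21.

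Day 0 and day 14 rest on different arrays throughout. In Atro 7 P450 genes had a call in the same direction on both days, which is 43.8% of the day 0 calls and 41.2% of the day 14 calls. In A66QC 13 did, or 65% and 50%, and in A75QN 15 did, or 60% and 44.1%. Over all probe sets these shares were 25.5% and 26.7% in Atro, 52.5% and 31.8% in A66QC, and 35.2% and 15.9% in A75QN. The genes that kept their direction in all 3 lines were Cyp9c1, higher, with Cyp6a14 and Cyp6a16, lower. Cyp6a16 lay under the limit in all 12 groups.

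**Figure D4:**
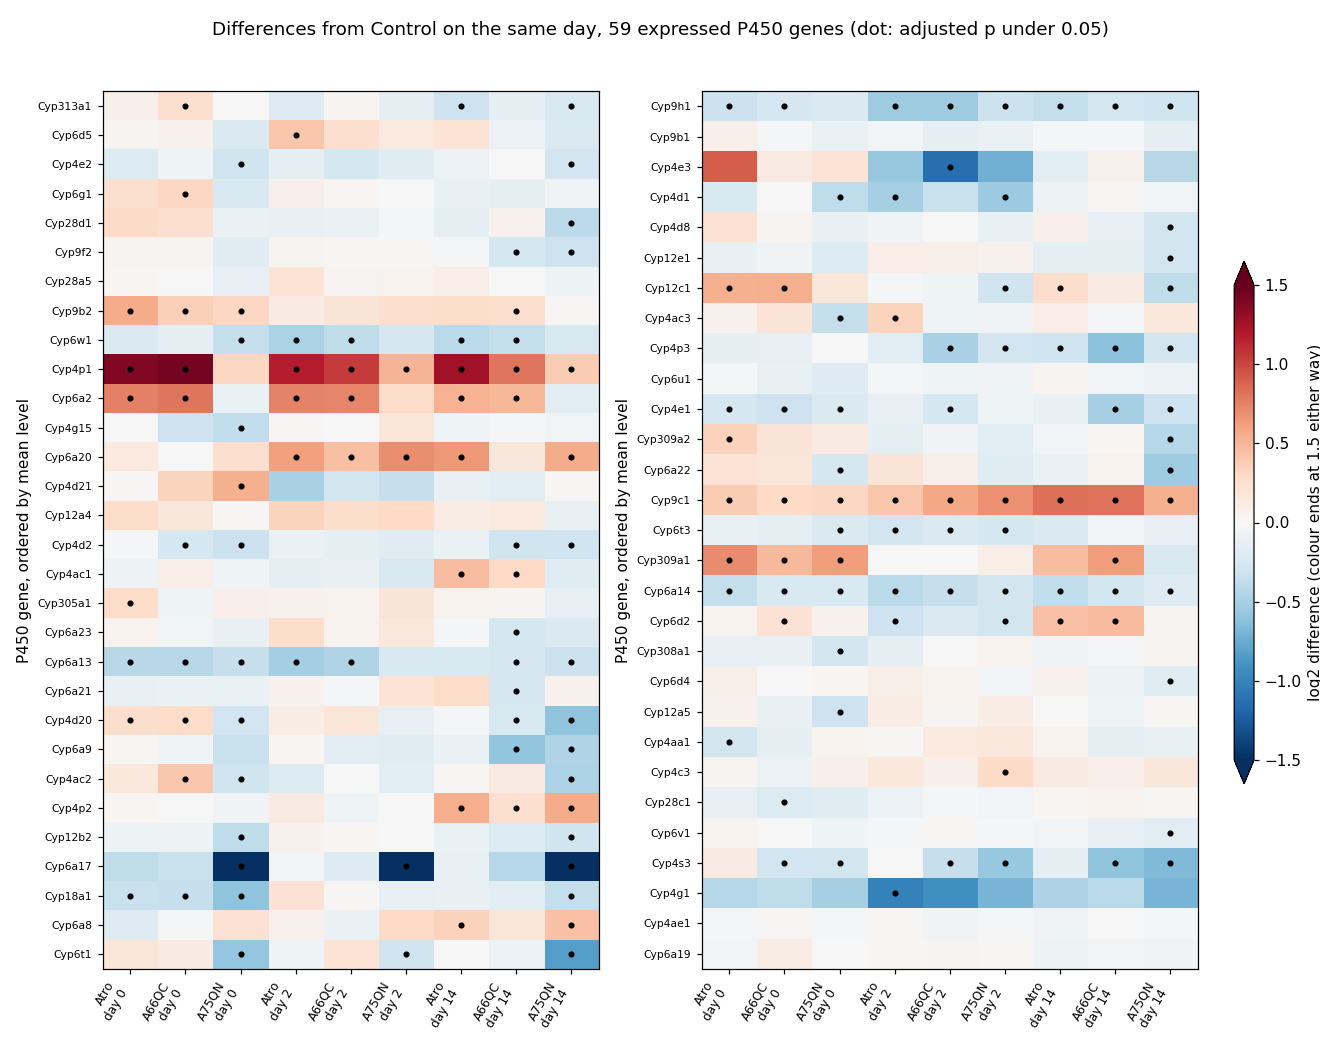
Log2 differences of the Atro, A66QC and A75QN lines from Control on days 0, 2 and 14 for the 59 expressed P450 genes (rows, by mean level); red is higher in the line, blue is lower, and a dot marks an adjusted p under 0.05. Cyp4p1 is red with dots in 8 of 9 columns, Cyp9c1 in all 9, and Cyp6a17 is blue with dots in the A75QN columns.

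Cyp6a17, a gene of the mushroom bodies that affects temperature preference, had the deepest difference from Control among the 81 genes found by the rule. The Control arrays of day 0 read 9.41, 9.63 and 9.62, while the A75QN arrays read 6.05, 7.40 and 7.65. On day 2 Control gave 8.61, 8.42 and 8.61 and A75QN 6.51, 7.22 and 6.89, and on day 14 Control gave 8.85, 8.81 and 8.65 and A75QN 6.55, 6.74 and 7.53. The highest A75QN array read 7.65, and the lowest array of any other genotype read 8.22. The differences were -2.52 (SE 0.24, adjusted p = 5.54e-09), -1.68 (adjusted p = 1.05e-05) and -1.83 (adjusted p = 8.71e-07). The SD within A75QN, between 0.35 and 0.86, was also wider than the 0.031 to 0.15 of the other groups. Atro and A66QC differed from Control by between -0.42 and -0.04, with no call on any day. Among the other genotypes the gene fell by 1.01 in Control and 0.86 in A66QC from day 0 to day 2, and its difference of -0.66 in Atro was not called. The SE of 0.24 comes from the fit of all groups, so it includes the scatter of A75QN in these comparisons too. Missing calls among the other genotypes therefore do not show that their groups were alike.

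Cyp6a17 lies in a run of 9 neighbouring P450 genes, in the order Cyp6a22, Cyp6a17, Cyp6a23, Cyp6a19, Cyp6a9, Cyp6a20, Cyp6a21, Cyp6a8 and Cyp317a1 in RefSeq. Its neighbour Cyp6a23 read 8.99, 8.91 and 8.70 in A75QN on day 0 and 8.86, 9.02 and 9.05 in Control, and A75QN was not called on any day. On the other side Cyp6a22 was lower in A75QN by 0.25 on day 0 and 0.54 on day 14 (SE 0.067, adjusted p = 0.0178 and 5.08e-07). Cyp6a20, known for its effect on male aggression, went the other way: A75QN was higher than Control by 0.70 on day 2 and 0.56 on day 14, Atro by 0.61 and 0.65, and A66QC by 0.45 on day 2. The A66QC call was lost when only the groups compared were fitted (adjusted p = 0.052). The run therefore held genes with differences in both directions within a single line. Its members are close in sequence, and how far a probe set reads a neighbour's RNA was not tested.

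Cyp4p1 was higher in Atro and A66QC from day 0 on. On day 0 it read 8.52, 8.77 and 8.75 in Control, 10.09, 9.99 and 10.13 in Atro, and 10.21, 9.96 and 10.20 in A66QC, with A75QN at 8.72, 9.09 and 9.15. The groups of Atro and A66QC did not overlap Control on any day. Atro was higher than Control by 1.39, 1.17 and 1.26 on days 0, 2 and 14 and A66QC by 1.44, 1.05 and 0.81 (SE 0.097 throughout, adjusted p at most 2.75e-07). A75QN was not called on day 0, at 0.31, and was higher by 0.51 on day 2 and 0.38 on day 14. The difference between A66QC and Control shrank by 0.64 from day 0 to day 14 (SE 0.14, adjusted p = 0.00538, tested as that difference).

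The other two genes of its run had calls against Control on fewer days. Cyp4p2 read 8.50, 8.53 and 8.52 in Control on day 14 and 9.12, 9.11 and 8.96 in Atro, and A75QN read 9.21, 8.86 and 9.15. It was not called in any line on day 0 or day 2, and on day 14 it was higher than Control by 0.54 in Atro, 0.56 in A75QN and 0.24 in A66QC (adjusted p = 5.65e-05, 1.99e-05 and 0.0494). Cyp4p3 was lower on day 14, by 0.29, 0.28 and 0.62 in Atro, A75QN and A66QC, and by 0.49 and 0.29 in A66QC and A75QN on day 2. So on day 14 all 3 lines were above Control in the first 2 genes of the run and below it in the last.

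Cyp6a2 resembled Cyp4p1 in which lines were higher. Its day 0 arrays read 9.48, 9.71 and 9.63 in Control, 10.41, 10.33 and 10.35 in Atro, 10.38, 10.25 and 10.61 in A66QC, and 9.66, 9.29 and 9.55 in A75QN. Atro was higher than Control by 0.76, 0.75 and 0.52 and A66QC by 0.81, 0.73 and 0.49 on the 3 days (SE 0.10 throughout). A75QN was called on no day, with differences between -0.16 and 0.27, and on day 14 it was 0.67 below Atro (adjusted p = 3.22e-05).

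Cyp9c1 was the P450 gene higher in all 9 comparisons with Control, as 0.0693% of all probe sets were. On day 14 it read 7.28, 7.39 and 7.29 in Control, 8.10, 8.07 and 8.26 in Atro, 8.13, 8.18 and 8.09 in A66QC, and 7.89, 7.83 and 7.84 in A75QN. None of the line arrays overlapped Control there. The differences from Control were 0.38, 0.30 and 0.31 on day 0, 0.41, 0.57 and 0.68 on day 2, and 0.82, 0.81 and 0.53 on day 14, in the order Atro, A66QC and A75QN. The gap widened from day 0 to day 14 by 0.44 in Atro (SE 0.091, adjusted p = 0.00397) and by 0.51 in A66QC (adjusted p = 0.000467), and its widening of 0.22 in A75QN was not called.

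Cyp6a14 was lower in all 9, as 0.149% of all probe sets were, by a small margin. Its Control arrays lay between 7.31 and 7.58 over the 3 days and its Atro arrays between 6.96 and 7.18, with no overlap. The differences from Control ran from -0.41 in Atro on day 2 to -0.19 in A75QN on day 14 (SE 0.054 throughout). Cyp6a13, next to it in the genome, was lower in all 3 lines on day 0, by 0.42, 0.42 and 0.35, and by 0.51 and 0.45 in Atro and A66QC on day 2. On day 14 Cyp6a13 was again called lower than in Control in A66QC and A75QN. Cyp9h1 was lower in Atro by 0.32, 0.53 and 0.36 and in A66QC by 0.26, 0.53 and 0.26, and in A75QN by 0.32 on day 2 and 0.30 on day 14. The Atro calls of day 0 and day 14 and the A75QN call of day 2 were each lost without some single array, with adjusted p between 0.0622 and 0.127.

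Cyp304a1 was near the floor of the arrays except on day 14. It read at most 6.18 on every array of days 0 and 2. On day 14 the A66QC arrays read 7.66, 8.02 and 7.44, the Atro arrays 6.84, 8.35 and 6.41, the A75QN arrays 6.57, 6.28 and 6.79, and the Control arrays 6.21, 6.22 and 6.39. A66QC stood clear of Control by 1.43 (SE 0.23, adjusted p = 3.77e-05). The Atro difference of 0.93 (adjusted p = 0.0146) rested on replicate 2, without which it was 0.35 (adjusted p = 0.139). It was also lost without Control replicate 2 (adjusted p = 0.0633) and with only the compared groups in the fit (adjusted p = 0.221). A75QN, at 0.27, was not called.

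**Figure D5:**
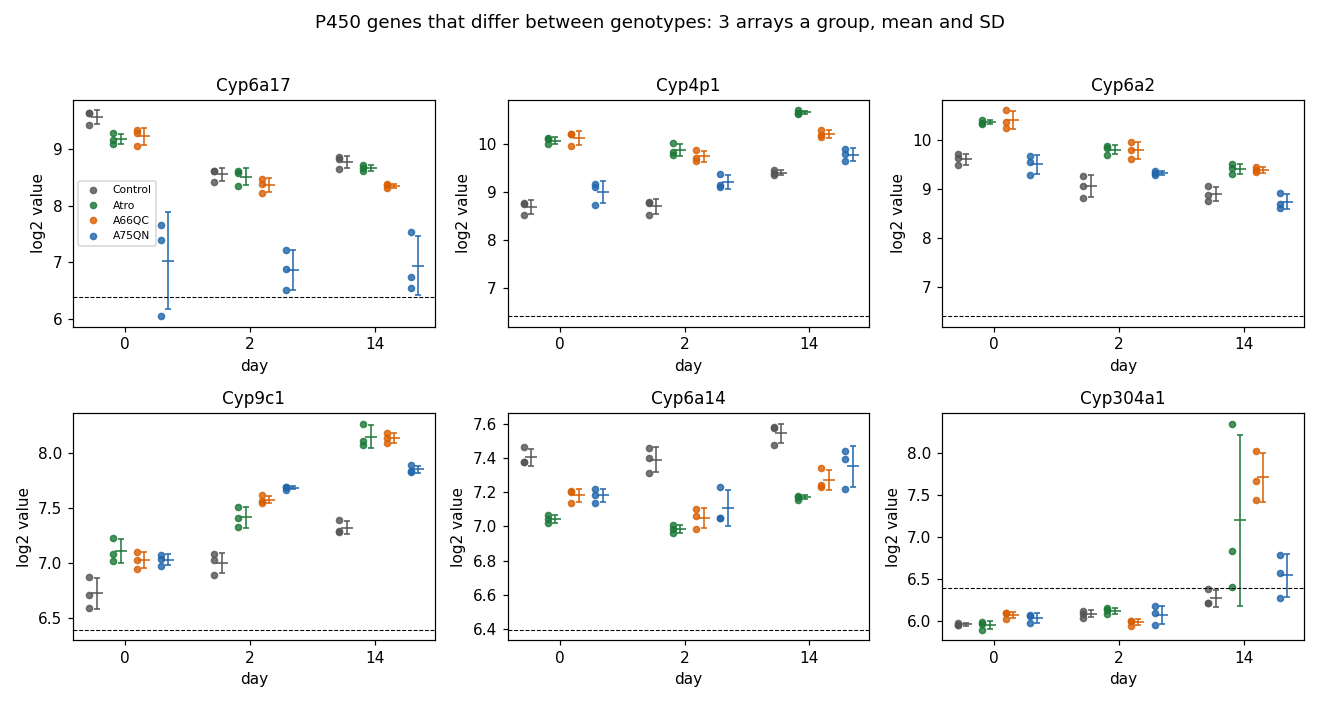
Log2 values by array (points, 3 for each genotype and day), with the mean and SD beside them, for 6 P450 genes with differences between genotypes; the dashed line is the limit of 6.40 and each panel has its own scale. The A75QN points of Cyp6a17 lie below all others, the Atro and A66QC points of Cyp4p1 lie above Control on each day, and Cyp304a1 exceeds 7 only in A66QC and in 1 Atro array on day 14.

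Among the genes lower in a polyglutamine line on day 14 were Cyp4s3, Cyp4d20 and Cyp6t1. Cyp4s3 read 6.87, 6.97 and 7.11 in Control on day 14, 6.86, 6.86 and 6.78 in Atro, 6.43, 6.31 and 6.39 in A66QC, and 6.29, 6.25 and 6.43 in A75QN. Both polyglutamine lines were below Atro on that day, by 0.46 in A66QC and 0.51 in A75QN (SE 0.058, adjusted p = 1.63e-06 and 1.45e-07), and their means of 6.38 and 6.32 were under the limit. They had been lower than Control by 0.28 on day 0 already, and the gap grew by 0.32 in A66QC and 0.38 in A75QN. On day 14 Cyp4d20 in A75QN differed from Control by -0.61 and from Atro by -0.59, and in A66QC by -0.24 and -0.22. On day 0 Cyp4d20 had been higher than Control in A66QC, by 0.28 (adjusted p = 0.00355), and in Atro, by 0.27 (adjusted p = 0.00774), and lower in A75QN, at -0.29. Cyp6t1 was lower in A75QN by 0.58, 0.30 and 0.82 on the 3 days and 0.81 below Atro on day 14, whereas Atro and A66QC were called on no day.

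Against the wild-type Atro line on day 14, A66QC had 0 P450 genes higher and 11 lower, and 0.698% and 5.16% of all probe sets were. These were 18.6% of the expressed P450 genes, against 10.6% of the probe sets above the limit. The median absolute difference was 0.103 for expressed P450 genes and 0.103 for the probe sets above the limit. The split depended on the scaling, with 9 and 7 after quantile normalization and 7 and 8 after cyclic loess, and the total was 7 when Atro replicate 1 was left out, 6 for A66QC replicate 2 and 5 for A66QC replicate 3. It was 22 with only the compared groups in the fit and 17 without the arrays of outlying spread. The 4 largest differences were those of Cyp6a21 (-0.53), Cyp6a9 (-0.49, lost without A66QC replicate 2 or 3, adjusted p = 0.0841 to 0.0884), Cyp6a20 (-0.48) and Cyp4s3. A75QN had 1 higher and 18 lower, against 2.77% and 6.53%, and its total of 19 was 31 without the arrays of outlying spread. That total was 32.2% of the expressed P450 genes, against 15.0% of the probe sets above the limit. The higher gene was Cyp6a14, at 0.18, a call lost without any of 5 single arrays. Behind Cyp6a17, at -1.72, the lowest were Cyp4p1 (-0.88), Cyp6t1 and Cyp309a1 (-0.70).

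The interaction of line and day was tested as the difference from Control on day 14 minus that on day 0. Atro had 7 P450 genes with a rise of that difference and 0 with a fall, against 0.671% and 1.44% of all probe sets. The counts were 11 and 2 after quantile normalization and 9 and 3 after cyclic loess, and the total was between 2 and 4 without Control replicate 2 of day 0, Atro replicate 3 of day 0, or any single Atro array of day 14, and with only the compared groups in the fit. Without Control replicate 3 of day 0 the split in Atro turned to 3 and 5. A66QC had 2 and 5, against 0.506% and 1.78%, with a total of 4, split evenly, without Control replicate 1 of day 0, a total of 4 without A66QC replicate 2 of day 14 and a total of 3 without Control replicate 2 of day 14. A75QN had 2 and 5, against 0.757% and 2.33%, or 6 and 7 and then 5 and 8 under the other scalings and 4 and 4 without the arrays of outlying spread. The interaction was called for 11.9%, 10.2% and 11.9% of the expressed P450 genes in Atro, A66QC and A75QN. Among the probe sets above the limit the shares were 3.90%, 4.14% and 5.64%.

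Cyp309a1 had the largest of the called changes in A75QN. On day 0 it read 6.50, 6.57 and 7.10 in Control and 7.66, 7.22 and 7.15 in A75QN, and on day 14 it read 7.24, 7.18 and 7.14 in Control and 7.07, 6.86 and 6.90 in A75QN. The order of the groups turned, and the difference fell by 0.86 (SE 0.19, adjusted p = 0.00591). The day 0 difference of 0.62 was lost without A75QN replicate 1 (adjusted p = 0.055). Its neighbour Cyp309a2 fell by 0.55 on the same measure, a call lost without A75QN replicate 1 or Control replicate 1 of day 0. In A66QC and Atro, Cyp309a1 rose between day 2 and day 14 by 0.58 and 0.43, and A66QC ended 0.62 above Control.

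Cyp12c1, of the mitochondrial clan, had the difference from Control fall by 0.56 in A75QN (SE 0.099, adjusted p = 0.000401) and by 0.42 in A66QC. Its Control arrays had risen from 7.11, 7.16 and 7.46 on day 0 to 8.21, 8.37 and 8.20 on day 14, while Atro and A66QC had started 0.54 above Control. The A66QC call was lost without several single arrays, among them Control replicate 1 or 2 of day 0. Cyp18a1 was below Control by 0.61 in A75QN on day 0 (SE 0.095, adjusted p = 6.51e-05) and by 0.36 on day 14. Its second probe set gave -0.37 and -0.30 for these. The day 0 calls of Cyp18a1 in Atro, at -0.34, and in A66QC, at -0.35, were lost without Control replicate 2 or 3, among other arrays, and the second probe set gave -0.29 (adjusted p = 0.0098) and -0.17 (adjusted p = 0.109).

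Technical measures and markers moved with some of these groups. The mean of 24 bacterial spike-in probe sets was between 13.2 and 13.4 on the 6 arrays of A75QN on days 2 and 14 and between 10.2 and 10.8 on the other 30, so a difference in handling cannot be told apart from genotype and day there. The array medians lay between 6.33 and 6.40. The control probe set at the 3′ end of Gapdh read above the one at its 5′ end on every array. This gap, a sign of RNA quality, was larger on day 14 than on day 0 in the 3 lines, with no overlap. It lay between 1.29 and 1.80 in Atro and between 1.56 and 1.74 in A66QC on day 0, and between 2.04 and 2.19 and between 2.14 and 2.20 on day 14. In A75QN it was at most 1.64 on day 0 and at least 1.87 on day 14. In Control it went from between 1.32 and 1.75 on day 0 to between 1.74 and 1.88 on day 14, below every Atro and A66QC array of that day. Of the 3 yolk protein genes, which are female-biased, 2 were lower in Atro than in Control on day 0, when their mean per array was between 12.53 and 12.81 against 13.07 to 13.38, and 1 was lower in A75QN on day 14. In A66QC 3 of 4 neuronal genes were lower than in Control on day 0 and 2 of 4 on day 14, and their mean was between 8.53 and 8.76 on day 14 against 8.96 to 9.18. In A75QN 1 of 4 was lower on day 0 and on day 14, as was 1 in Atro on day 14. Of 5 head fat body genes, 2 were higher than in Control in A75QN on day 0 and in Atro and A66QC on day 14, and 1 was lower in Atro and in A75QN on day 2. Both muscle genes were higher than in Control in Atro and A75QN on day 2 and 1 in A66QC, and 1 was higher in A75QN on day 0 and in A66QC on day 14. Of 2 haemocyte genes, 1 was lower than in Control in 8 of the 9 comparisons, but not the same gene. It was NimC1 in Atro and A66QC on each day, and Hml in A75QN on days 0 and 14. Hml was higher in Atro on day 0 and in A66QC on day 2. Of 4 glial genes, 2 were lower than in Control in A66QC on day 14, when their mean was between 9.98 and 10.03 against 10.33 to 10.49. In A75QN 2 were lower and 1 higher on day 14, with a mean between 10.12 and 10.32, and 1 was higher on day 2. Of the 4 photoreceptor genes, none passed the test in any line against Control. The endogenous gene behind the transgene, Gug, was not higher in any line than in Control, and its probe set need not read the transgene. Gug was called lower than in Control in A66QC on days 0 and 14, at -0.40 and -0.31, and in A75QN on day 0, at -0.35. The part of these measures in the P450 results was not tested.

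Other genes tied to P450 function were read from lists chosen by function. The Halloween genes encode the P450 enzymes of ecdysone synthesis and the oxygenase nvd, and 6 of 7 were measured. Their means lay below the limit except for sad, which encodes a mitochondrial hydroxylase of that pathway. In Control, sad read 6.30, 6.21 and 6.16 on day 0, 9.84, 9.53 and 9.89 on day 2, and 9.60, 9.64 and 9.58 on day 14. The day 0 arrays stood apart from the later ones. The lines had lower levels later on: their sad means on day 2 were 7.47 in Atro, 7.61 in A66QC and 7.55 in A75QN, and on day 14 they were 7.85, 6.49 and 6.51. On day 14 sad differed from Control by -3.11 in A66QC and -3.10 in A75QN, and from Atro by -1.36 and -1.34 (for Atro, SE 0.071, adjusted p = 3.45e-15 and 6.21e-15). No other Halloween gene differed by more than 0.21 in a called comparison.

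Among 4 measured redox partners, Fdx1, a ferredoxin gene, rose from day 2 to day 14 in all 4 genotypes, by 0.28, 0.64, 0.28 and 0.40 in Control, Atro, A66QC and A75QN. Cyt-b5-r, the cytochrome b5 reductase gene, rose by 0.51, 0.38 and 0.31 in the first 3 of these genotypes, and in A75QN on day 14 it was 0.42 below Control. On the same day Fdx1 was called higher than in Control in Atro and A75QN, with means of 8.56 and 8.40 against 8.16. Fdx2 fell by between 0.18 and 0.33 from day 0 to day 2 in all 4. Cyt-b5 was called in no comparison. Of 7 regulator genes, maf-S, a partner of the stress factor encoded by cnc, rose from day 0 to day 2 in all 4 genotypes by between 0.25 and 0.40, and cnc rose after day 2 in Control, Atro and A75QN by 0.34, 0.22 and 0.21. Hr96, a xenobiotic receptor gene, rose early in Control, A66QC and A75QN by 0.23, 0.26 and 0.41. Against Control the calls among the regulators were those of ERR, a nuclear receptor gene, which was higher by 0.35 in Atro and 0.26 in A66QC on day 0 and by 0.21 in Atro on day 2.

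A few further P450 genes are given by their values. Cyp4e2 was lower in A75QN than in Control by 0.30 on day 0 and 0.29 on day 14. Cyp6w1 was called lower than in Control in 5 of the 9 line comparisons, among them Atro on day 14, at -0.40 (adjusted p = 0.00338). Cyp305a1 was higher in Atro on day 0 by 0.28 and rose by 0.27 and 0.28 from day 0 to day 2 in A66QC and A75QN. Cyp4g15 was lower in A75QN on day 0 by 0.37 and rose there by 0.36. The Atro difference of Cyp4g1 on day 2, -1.02 (adjusted p = 0.0338), was lost without any of 4 single arrays, with adjusted p up to 0.188, and without the arrays of outlying spread (adjusted p = 0.189). Cyp4ac2, Cyp12b2, Cyp12e1, Cyp308a1, Cyp12a5, Cyp28c1 and Cyp6v1 had means between 6.82 and 8.50. Among them Cyp4ac2 rose from day 2 to day 14 by 0.55 in Control, 0.78 in Atro and 0.67 in A66QC, and A75QN was 0.47 below Control on day 14. Cyp301a1, which acts in adult cuticle formation, had group means between 6.09 and 6.44 and rose in Control by 0.30 from day 0 to day 2. This early rise was called in 3 of the 4 genotypes and a fall after day 2 in 2. Cyp301a1 was also called lower than Control in 3 of the 9 line comparisons. Cyp311a1, known from the larval midgut, had group means between 6.08 and 6.46. The cyclophilin genes Cyp1 and Cyp40 had means of 12.14 and 7.62, and their called differences were at most 0.43 either way.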

How the data were processed

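The 36 one-colour Affymetrix arrays were deposited as log2 expression values, 1 per probe set and array. R 2.11.0 is named in the submitters' processing notes, and for background correction, summarization and normalization no method is stated in those sources. The deposited values were used as they stand, over 18952 probe sets with no missing value. Of these, 183 control probe sets were left out, and 18769 were tested. The platform table gave 13647 probe sets 1 gene symbol, 402 several and 4720 none, and all 81 P450 symbols matched RefSeq, which was used for names and neighbours alone.

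Differences were tested with limma 3.58.1 in R 4.3.3, in 1 fit of 36 arrays with 12 group means, 22 contrasts and Benjamini-Hochberg adjustment over all tested probe sets at 0.05, two-sided. SE is the fit's moderated standard error. The fit has 24 residual degrees of freedom, and 3 arrays per group limit the precision. The script was tested on simulated data.

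Up to 4 rises and 4 falls, the largest among those called, were picked for naming in each comparison, beside a list of P450 genes named whatever they showed. A few others were chosen after their values were seen, among them Cyp6a16, Cyp4ac2, the members of shared patterns and neighbours of named genes. Not every picked difference is printed above. An example against Control is Cyp4e3 in A66QC on day 2 (-1.13), a call lost without some single arrays. Further ones are Cyp309a1 and Cyp9b2 in Atro on day 0 (0.70 and 0.56) and Cyp6a9 in A66QC on day 14 (-0.59). The members and lists were chosen with earlier results of these data known. Replicate arrays correlated between 0.995 and 0.999 and none were identical. Alternatives were quantile and cyclic loess normalization, a filter on dim probe sets, a level limit of 7, other probe sets of a gene, leaving out each array, a block for the replicate number, fits without the groups not compared, and leaving out 5 arrays whose SD lay at least 5% off their group's median. Of the lists with no value in the report, the mean of 4 oenocyte genes per array lay between 7.43 and 7.88, and 35 glucuronosyltransferase genes were also read. In Control, 4 of the glucuronosyltransferase genes rose and 8 fell from day 0 to day 2.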

Additional observations from a re-analysis of the deposited data

Results flagged for a closer look

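The differences of a line from Control changed between day 0 and day 14 for the genes below, each by the test of that change in limma. In Atro the change was 0.54 for Cyp6a8, 0.54 for Cyp4ac1, 0.51 for Cyp4p2 and 0.50 for Cyp6a20. Each of these 4 calls was lost without some single arrays. In A66QC the change was 1.32 for Cyp304a1, 0.51 for Cyp9c1, -0.64 for Cyp4p1, -0.52 for Cyp4d20, -0.50 for Cyp4p3 and -0.42 for Cyp12c1. The calls of Cyp304a1, Cyp4p3 and Cyp12c1 were lost without some single arrays. In A75QN it was 0.61 for Cyp4p2, 0.52 for Cyp4ac3, -0.86 for Cyp309a1, -0.56 for Cyp12c1, -0.55 for Cyp309a2 and -0.38 for Cyp4s3, and the call of Cyp309a2 was lost without either of 2 arrays.

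Probe sets shared by several genes stood outside the gene counts. The probe set of shn and Cyp6v1 averaged 8.55 and rose from day 2 to day 14 in all 4 genotypes, by 0.82, 0.81, 0.74 and 0.78 in Control, Atro, A66QC and A75QN. The probe set of Cyp6v1 alone rose by 0.24 in Control and in Atro. The probe set of Cyp12d1-d and Cyp12d1-p, xenobiotic-inducible mitochondrial P450 genes, averaged 6.96. It rose by 0.56 in Control from day 0 to day 2, and Atro and A66QC were 0.41 and 0.30 above Control on day 0. Later the called differences from Control were -0.32 in A66QC on day 2, and -0.35 in Atro and -0.38 in A75QN on day 14. From day 0 to day 14 the difference from Control changed by -0.77 in Atro and -0.65 in A75QN, and the change in A66QC was not called.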

How the results depend on the processing

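No named difference changed sign under any alternative run. The majority of higher against lower calls turned after quantile normalization for A75QN from day 0 to day 2, A66QC against Control on day 14 and A66QC against Atro, and for the former pair after cyclic loess. Turns or ties when single arrays, arrays of outlying spread or the groups not compared were left out stand in the report. A filter on dim probe sets moved no count by over 1.5 times. The counts were not repeated with the other probe sets of a gene, which kept 3 named calls and lost 1. Counts that did move were these. After quantile normalization 24 P450 genes were called in Atro against Control on day 2, 21 in A66QC and 30 in A75QN, and the change of the difference from Control gave 13 in Atro and 13 in A75QN. After cyclic loess these were 24 in Atro and 28 in A75QN on day 2, and 12 and 13 for the change. Without the arrays of outlying spread, Control from day 2 to day 14 gave 17, A66QC against Atro 17 and A75QN against Atro 31. With the compared groups alone, Atro against Control on day 0 gave 9, A66QC 13, A66QC against Atro 22 and the change in Atro 4. Leaving out single arrays gave 10 to 16 for Atro, 10 to 19 for A66QC and 14 to 28 for A75QN against Control on day 0. It gave 11 to 16, 15 to 21 and 21 to 34 in that order on day 14, 5 to 10 for A66QC against Atro, and 2 to 8 and 3 to 9 for the change in Atro and A66QC. The cause was not tested.

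With the replicate number as a block, the counts were within 1.5 times of those without it, for example 33 in place of 31 for Atro from day 0 to day 2 and 27 in place of 25 for A75QN against Control on day 0, and no named call changed. Arrays of the same number correlated between -0.599 and 0.678 in their deviations (median 0.0338), and 13 of 36 arrays correlated best with their own number, so the numbers do not pair the arrays. Genes near the limit of 6.40 have little signal over background, and calls outside the naming rule were not refitted one by one.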
